A study of Homo sapiens with 6 samples.

Results

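The feedback genes of the RAF-MEK-ERK pathway were compared between human cells, labelled as the melanoma line G361, that carry a control shRNA and cells in which an shRNA targets DCAF1, the gene of VprBP. The group is made up of DUSP4, DUSP5, DUSP6, SPRY2, SPRY4, SPRED1, SPRED2, ETV4, ETV5 and PHLDA1. The genes were chosen by name as known transcriptional outputs of the pathway, 10 genes out of 21494 in the count table. All 10 passed the filter on low counts and were among the 16756 genes tested. DUSP6, ETV4, ETV5 and PHLDA1 were lower in the cells with the DCAF1 shRNA, each by more than 6-fold. DUSP4, SPRY2, SPRED1 and SPRED2 had values that overlapped between the groups.

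ERK is the last kinase of a cascade in which a receptor tyrosine kinase activates RAS, RAS activates a RAF kinase, RAF activates MEK and MEK phosphorylates ERK. Active ERK enters the nucleus and raises transcription of a set of genes whose products turn the pathway down again: dual specificity phosphatases remove phosphate from ERK, and Sprouty and Spred proteins act at the level of RAS and RAF. The ETS factors ETV4 and ETV5 and the PHLDA1 gene are switched on along with them, and the capicua repressor CIC, which ERK inactivates, sits on several of these genes. In melanoma the pathway is often driven by mutant BRAF or NRAS, and the level of these transcripts is widely read as a measure of its output.

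RNA-seq was available for 6 samples, 3 of Control sh (labelled WT) and 3 of VprBP sh (labelled DCAF1 Knockdown), in which the shRNA is stably expressed from a lentivirus. The labels name the cells as G361 but give LD611 as their source name, and the marker levels given below go against the melanoma label, so which cells were sequenced is not settled. Nothing in the labels says that the 3 samples of a group were grown as separate cultures, so p-values measure only the spread between these samples. A normalized count is an estimated read count divided by a scaling factor from the upper quartile of each sample. Changes are log2 fold changes of VprBP sh over Control sh from edgeR's quasi-likelihood test, with Benjamini-Hochberg adjustment over all genes tested. A call needs an adjusted p under 0.05 together with a fold change over 2.

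Total estimated counts ran from 18195949 to 26883948 per sample, and 3 counts corresponded to 2.30 to 3.48 normalized counts. DCAF1, the targeted gene, had 797, 971 and 838 normalized counts in Control sh and 760.3, 507 and 481 in VprBP sh, a log2 fold change of -0.58 (SE 0.17, adjusted p = 0.0125 from edgeR) that did not reach 2-fold. It no longer passed with library size alone as the scaling (-0.37, adjusted p = 0.0851 from edgeR) or with replicates 2 and 3 of each group summed (-0.46, adjusted p = 0.0839 from edgeR). Replicate 1 of VprBP sh had the highest DCAF1 level of its group, close to the lowest Control sh sample. In both groups replicate 1 stood apart from replicates 2 and 3, with a chi-square per degree of freedom of 17.6 to 29.1 for pairs that include it and 2.36 to 2.50 for pairs that do not. Of 8 melanocyte-lineage markers, TYR, DCT, SOX10 and S100B were not in the table, and the others summed to between 199 and 236 normalized counts in Control sh against 244 to 308 in VprBP sh. Of 11 urothelial markers, 9 were in the table, with a summed level of 107087 to 118597 against 25108 to 28551 normalized counts. Most of this sum was KRT5 and KRT7 in Control sh (means 64989 and 35085) and KRT7 in VprBP sh (21576). Of 8 tested, 2 were called as higher and 5 as lower, beside 24.5% and 22.0% of all genes tested. GATA3 went from 0 to 8.11 up to 1386 to 1764 normalized counts, and PPARG from a mean of 277 to 726. UPK1B was at 0 counts throughout VprBP sh. TP63 and KRT13 had means of 8929 and 4346 in Control sh and of 9.44 and 6.18 in VprBP sh. Fibroblast markers (4 of 6 in the table) summed to 755 to 803 and 457 to 602 normalized counts, and endothelial and blood markers (3 of 5) to 618 to 687 and 29.03 to 39.1. These marker sums differed between the groups along with the results below, and their part in them was not tested. Whether both groups are the same cells was not tested either, and such a difference cannot be told apart from the shRNA.

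Of the 10 feedback genes, 4 were called as lower in VprBP sh and 0 as higher. As these are bulk samples, fewer expressing cells and less RNA per cell cannot be told apart. Across all genes tested, 22.0% were called as lower, 24.5% as higher and 46.4% in either direction. At any fold change 6 genes had an adjusted p under 0.05 in edgeR, all of them lower, where the shares of all genes tested were 36.0% lower, 40.4% higher and 76.4% in either direction. With library size alone, or with replicates 2 and 3 of each group summed, DUSP5 and SPRY4 no longer passed in edgeR, and with library size alone SPRED2 passed as higher. The same 6 genes were those whose 3 values did not overlap between the groups, against shares of 37.3% lower, 42.2% higher and 79.5% in either direction over all genes tested. The median log2 fold change of the 10 genes was -0.68, beside 0.08 for all genes tested. The 10 genes thus split into 4 with log2 fold changes from -4.68 to -2.77, and 6 with values between -0.97 and 0.19.

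**Figure D1:**
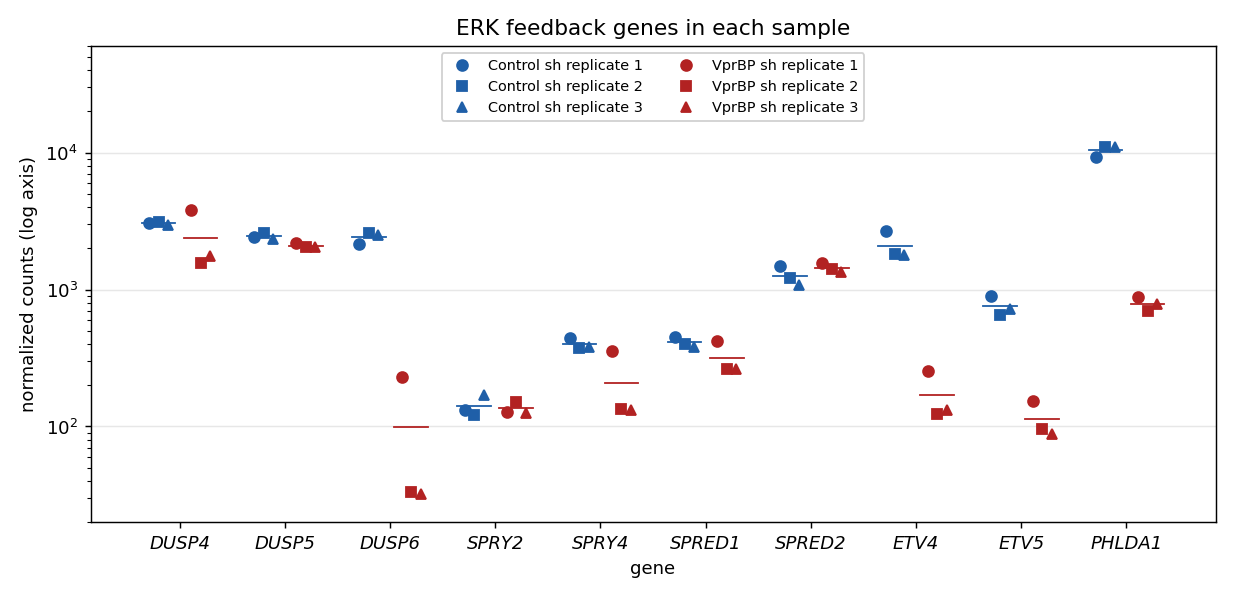
Normalized counts (log axis) of the 10 ERK feedback genes in each of the 3 Control sh (blue) and 3 VprBP sh (red) samples, with marker shapes for replicates and a line at each group mean. The groups lie far apart for DUSP6, ETV4, ETV5 and PHLDA1, and the VprBP sh replicate 1 circle lies above the other red points for 9 of the 10 genes.

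**Figure D2:**
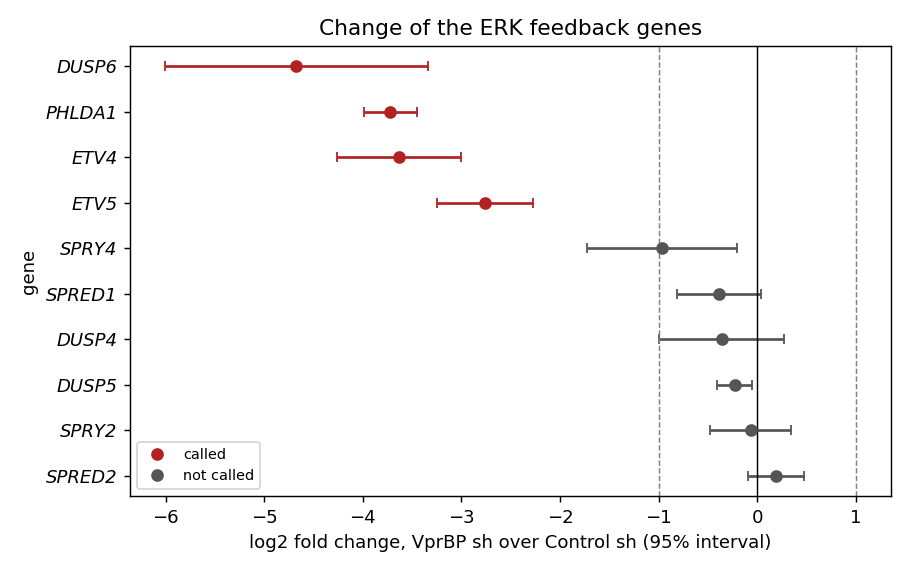
Log2 fold change of VprBP sh over Control sh with its 95% confidence interval for each of the 10 genes, ordered by size, with dashed lines at a 2-fold change in either direction. Called genes are red, and the intervals of DUSP6, PHLDA1, ETV4 and ETV5 lie wholly below a 2-fold decrease.

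The dual specificity phosphatases of the group differed among themselves, with DUSP6 called and DUSP4 and DUSP5 not. DUSP6 encodes a cytoplasmic phosphatase that binds and dephosphorylates ERK, and its transcript is among the most direct readouts of ERK activity. DUSP6 (ENSG00000139318.8) is a gene of chromosome 12 (hg38, 89347235 to 89352501, minus strand). Its normalized counts were 2158, 2579.6 and 2502 in Control sh and 231, 33.3 and 32.2 in VprBP sh. The highest VprBP sh sample lay far below the lowest Control sh sample, and within VprBP sh replicate 1 had 7.06 times the mean of replicates 2 and 3. The group means were 2413 ± 224 and 98.9 ± 115 (SD, n = 3 each), a log2 fold change of -4.68 (SE 0.59, 95% interval -6.01 to -3.34, adjusted p = 5.86e-05 from edgeR). Leaving out VprBP sh replicate 1 took this to -6.20 (adjusted p = 2.29e-08 from edgeR). Here and below, a fit without that sample rests in VprBP sh on replicates 2 and 3. These lay close together over all genes (chi-square per degree of freedom 2.36). The p-value of such a fit leaves out the spread that replicate 1 brings. The DUSP6 gene shares 1105 of its 3859 exonic bases with a lncRNA on the opposite strand, ENSG00000274021, whose counts were 115, 75 and 87 in Control sh against 10, 3 and 5 in VprBP sh. Since strand use in counting is not stated, reads in the shared part cannot be told apart.

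The sequence around the DUSP6 start is shown because it is the only window searched here that holds a CIC octamer, the word that capicua binds. ETV4, ETV5, DUSP4 and DUSP5 had no window and were not searched. It runs from 250 bases before the start to 50 bases after its first base (RefSeq, GRCh38.p14, chr12:89352452-89352751, minus strand) and is printed 5′ to 3′ with the octamers in capitals.
DUSP6: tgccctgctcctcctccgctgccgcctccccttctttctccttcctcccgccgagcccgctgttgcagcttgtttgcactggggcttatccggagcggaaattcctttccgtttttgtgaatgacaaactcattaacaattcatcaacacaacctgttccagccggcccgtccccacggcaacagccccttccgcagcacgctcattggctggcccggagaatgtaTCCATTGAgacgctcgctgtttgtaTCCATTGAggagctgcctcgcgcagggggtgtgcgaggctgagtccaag
The octamer was searched as TGAATGAA, TGAATGGA, TCAATGAA and TCAATGGA on both strands, and the window held it at 2 places, at positions -24 to -17 and 2 to 9 from the start, both times as TCCATTGA, the complementary reading. Such an octamer was found in 3.77% of 35116 promoter windows of the same length. A CCAAT box (CCAAT on either strand, in 34.6% of windows) ended at position -42, and the GC content was 58.3% against a median of 58.7% over all windows. RefSeq windows were matched for 6 of the 10 genes, 9 windows in all, and none of the other 8 windows held the octamer. Of the called genes only DUSP6 and PHLDA1 had a window, so the octamer is not known to be particular to DUSP6 among them. These are matches of letters, and binding was not measured.

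DUSP4 and DUSP5 encode nuclear phosphatases that are induced by ERK and bind it in the nucleus. DUSP5 (ENSG00000138166.6, chromosome 10, 110497907 to 110511533, plus strand) had 2422, 2594 and 2352 normalized counts in Control sh and 2198, 2029 and 2058 in VprBP sh. All VprBP sh samples were below all Control sh samples by a small margin, with a log2 fold change of -0.23 (SE 0.08, 95% interval -0.41 to -0.05, adjusted p = 0.0234 from edgeR), which is 1.17-fold and was not called. With library size alone as the scaling it was -0.02 (adjusted p = 0.857 from edgeR), where the median of all genes tested moved from 0.08 to 0.29. With replicates 2 and 3 of each group summed it was -0.22 (adjusted p = 0.207 from edgeR). DUSP4 (ENSG00000120875.9, chromosome 8, 29333064 to 29350684, minus strand) had 3068, 3094 and 2969 normalized counts in Control sh. In VprBP sh its values were 3803, 1557 and 1753, so that replicate 1 was above every Control sh sample and the other two were below. The log2 fold change was -0.36 (SE 0.28, 95% interval -1.0 to 0.27, adjusted p = 0.265 from edgeR). Without VprBP sh replicate 1 it was -0.88 (adjusted p = 1.68e-05 from edgeR), still under 2-fold, and without VprBP sh replicate 2 it was -0.14 (adjusted p = 0.638 from edgeR). Without VprBP sh replicate 3 it was -0.19 (adjusted p = 0.58 from edgeR). With replicates 2 and 3 of each group summed it was -0.17 (adjusted p = 0.622 from edgeR).

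The ratio of these phosphatases within a sample does not depend on the scaling. DUSP4 had 1.42, 1.20 and 1.19 counts for each count of DUSP6 in Control sh, and 16.5, 46.8 and 54.5 in VprBP sh. DUSP5 had 1.12, 1.01 and 0.940 counts per DUSP6 count in Control sh, and 9.51, 61.0 and 63.9 in VprBP sh. For both ratios the groups did not overlap, with differences of 4.78 and 5.03 on the log2 scale. An exact two-sided permutation test over the 6 samples gave p = 0.1 for each, the smallest that 3 samples against 3 allow. In all, 5 such ratios were computed.

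The other MAP kinase phosphatases, 7 genes listed for comparison, were called in 6 of 7 cases, 3 higher and 3 lower. Over all genes tested the shares were 24.5% higher, 22.0% lower and 46.4% in either direction. DUSP7, a close relative of DUSP6 that also acts on ERK in the cytoplasm, fell from 3045, 1664 and 1637 normalized counts to 220.0, 257 and 296 (log2 fold change -3.03, adjusted p = 3.08e-06 from edgeR). DUSP9, the third of these ERK-directed phosphatases, went from 238, 155 and 137 to 19.0, 26.0 and 26.1 normalized counts (log2 fold change -2.88, adjusted p = 8.66e-06 from edgeR). DUSP6 and both of its cytoplasmic relatives were thus lower, the counts of all 3 genes lying apart between the groups. Values also lay apart for 79.5% of all genes tested, 37.3% as lower, and these 3 genes were put together after their values were seen. Among the phosphatases that act mainly on JNK and p38, DUSP10 fell from 1154 ± 88.5 to 209.7 ± 33.3 normalized counts (SD, n = 3 each, log2 fold change -2.46) while DUSP16 rose from 723 ± 194 to 1770.2 ± 224 (log2 fold change 1.29). DUSP8 had 25.5, 9.78 and 9.48 normalized counts in Control sh and 117, 214 and 238 in VprBP sh (log2 fold change 3.70), but its count is uncertain because a pseudogene copy, DUSP8P5, also had higher counts in VprBP sh. DUSP2, an inducible nuclear phosphatase, had 5.80, 0 and 5.69 normalized counts in Control sh and 93.8, 86.2 and 61.3 in VprBP sh (log2 fold change 4.33, adjusted p = 4.56e-05 from edgeR). DUSP1, an immediate early nuclear phosphatase, had 991, 842 and 760.4 normalized counts in Control sh and 1396, 240.0 and 227 in VprBP sh (log2 fold change -0.49, adjusted p = 0.469 from edgeR), the same layout as DUSP4 with replicate 1 of VprBP sh above every Control sh sample.

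Sprouty proteins are induced by growth factors and hold back the signal between receptors and RAF, with SPRY2 and SPRY4 the members counted among ERK outputs here. SPRY4 (ENSG00000187678.10, chromosome 5, 142310427 to 142326455, minus strand) had 440.4, 376 and 381 normalized counts in Control sh and 353, 134 and 132 in VprBP sh. The groups did not overlap, but replicate 1 of VprBP sh was close to the Control sh samples and had 2.65 times the mean of replicates 2 and 3. The log2 fold change was -0.97 (SE 0.34, 95% interval -1.73 to -0.21, adjusted p = 0.0245 from edgeR), or 1.96-fold lower, just short of the 2-fold threshold. Without VprBP sh replicate 1 it was -1.59 (adjusted p = 1.36e-05 from edgeR) and SPRY4 was called, as it also was with DESeq2 at -1.08 (adjusted p = 0.00168) and with edgeR's TMM factors at -1.07 (adjusted p = 0.0169). Without VprBP sh replicate 2 it was -0.75 (adjusted p = 0.0737 from edgeR) and without replicate 3 it was -0.72 (adjusted p = 0.0753 from edgeR). With replicates 2 and 3 of each group summed it was -0.80 (adjusted p = 0.0747 from edgeR).

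The SPRY4 window is printed beside that of PHLDA1, described below, as examples without the octamer. Capitals mark a GC box (GGGCGG on either strand), which 45.0% of all windows hold.
SPRY4: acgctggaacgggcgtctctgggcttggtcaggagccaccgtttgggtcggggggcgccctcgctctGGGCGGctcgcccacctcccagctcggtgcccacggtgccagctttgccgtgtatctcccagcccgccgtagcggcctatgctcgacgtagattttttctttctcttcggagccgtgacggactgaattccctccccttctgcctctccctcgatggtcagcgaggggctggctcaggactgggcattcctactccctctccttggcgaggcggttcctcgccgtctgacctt
PHLDA1: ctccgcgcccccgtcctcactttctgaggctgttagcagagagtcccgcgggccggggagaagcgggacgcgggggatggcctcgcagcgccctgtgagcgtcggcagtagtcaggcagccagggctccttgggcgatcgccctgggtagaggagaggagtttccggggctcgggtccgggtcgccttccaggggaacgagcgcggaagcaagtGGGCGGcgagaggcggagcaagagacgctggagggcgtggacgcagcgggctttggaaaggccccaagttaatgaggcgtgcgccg
The SPRY4 window (chr5:142324198-142324497, minus strand) lies inside the gene, whose first base on this strand is 142326455, so the sequence there was not searched. It had 65.0% GC with the box at positions -183 to -178, and the PHLDA1 window (chr12:76031727-76032026, minus strand) had 69.3% GC with the box at -36 to -31. Neither held the ETS word CCGGAAGT (4.14% of windows), the AP-1 word TGANTCA (7.71%) or the CRE word TGACGTCA (1.85%).

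SPRY2 (ENSG00000136158.12, chromosome 13, 80335976 to 80341126, minus strand) had 132, 122 and 171 normalized counts in Control sh and 128, 152 and 126.5 in VprBP sh. The values of the groups were interleaved, with a log2 fold change of -0.07 (SE 0.18, 95% interval -0.48 to 0.34, adjusted p = 0.748 from edgeR). Relative to the median of all genes tested its change was -0.15. There were 3.33, 3.09 and 2.23 SPRY4 counts per SPRY2 count in Control sh and 2.75, 0.884 and 1.04 in VprBP sh. The groups overlapped, with replicate 1 of VprBP sh inside the Control sh range (exact two-sided permutation p = 0.2).

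The Sprouty genes outside the group went the other way. SPRY1 was at 143, 143 and 144 normalized counts in Control sh and rose to 533, 289 and 346 in VprBP sh (log2 fold change 1.44, SE 0.22, adjusted p = 0.000204 from edgeR). SPRY3, which lies in a region shared by the sex chromosomes, rose from 9.27, 25.0 and 7.58 to 202, 196 and 223 normalized counts (log2 fold change 3.90, SE 0.34, adjusted p = 4.31e-06 from edgeR). The composition of the family differed along with this and was not tested. Per kilobase of exon, SPRY4 made up 46.3%, 42.9% and 39.2% of the summed Sprouty level in Control sh and 21.8%, 12.8% and 12.0% in VprBP sh, while SPRY1 made up 24.8%, 27.1% and 24.5% and then 54.3%, 45.8% and 52.0%. The summed level itself was 142 ± 7.62 and 191 ± 48.5 normalized counts per kilobase in Control sh and VprBP sh (SD, n = 3 each).

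Spred proteins are relatives of Sprouty that bring neurofibromin, a RAS inactivator, to the membrane. SPRED1 (ENSG00000166068.13, chromosome 15, 38252836 to 38357249, plus strand) had 453, 402 and 380.2 normalized counts in Control sh and 422, 264 and 264 in VprBP sh. Replicate 1 of VprBP sh lay among the Control sh samples and the other two below them, with a log2 fold change of -0.38 (SE 0.19, 95% interval -0.81 to 0.04, adjusted p = 0.0903 from edgeR). Without VprBP sh replicate 1 it was -0.64 (adjusted p = 0.00125 from edgeR), under 2-fold. Without VprBP sh replicate 2 it was -0.28 (adjusted p = 0.248 from edgeR). Without VprBP sh replicate 3 it was -0.27 (adjusted p = 0.265 from edgeR). With replicates 2 and 3 of each group summed it was -0.32 (adjusted p = 0.262 from edgeR). It passed at any fold change with TMM factors (-0.48, adjusted p = 0.0435 from edgeR). So it did with DESeq2 (-0.51, adjusted p = 0.0217) and with a replicate block (-0.41, adjusted p = 0.0453 from edgeR). SPRED2 (ENSG00000198369.10, chromosome 2, 65310851 to 65432637, minus strand) had 1488, 1222 and 1077 normalized counts in Control sh and 1565, 1417 and 1342 in VprBP sh, and is the only gene of the group with a log2 fold change above 0. The groups overlapped, and the log2 fold change was 0.19 (SE 0.13, 95% interval -0.09 to 0.47, adjusted p = 0.188 from edgeR). With library size alone it was 0.41 (adjusted p = 0.0124 from edgeR), where the median of all genes tested was 0.29. Without Control sh replicate 1 it was 0.32 (adjusted p = 0.0204 from edgeR). There were 3.28, 3.04 and 2.83 SPRED2 counts per SPRED1 count in Control sh and 3.71, 5.37 and 5.09 in VprBP sh, with no overlap (difference 0.61 on the log2 scale, exact two-sided permutation p = 0.1). SPRED3, outside the group, fell from 134, 116 and 125 to 21.2, 31.2 and 56.7 normalized counts (log2 fold change -1.74, SE 0.31, adjusted p = 0.000622 from edgeR). It took only a small part of the summed Spred level, which was 304 ± 43.7 normalized counts per kilobase in Control sh and 309 ± 29.4 in VprBP sh, with overlap.

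ETV4 and ETV5 belong, with ETV1, to the PEA3 subfamily of ETS transcription factors, which act downstream of ERK in growth and branching and are held off by capicua. ETV4 (ENSG00000175832.13, chromosome 17, 43527844 to 43579620, minus strand) had 2667, 1812 and 1793 normalized counts in Control sh and 255, 123 and 133 in VprBP sh. In both groups replicate 1 was the highest sample, by 1.48 times the mean of the others in Control sh and by 2.00 times in VprBP sh, and the groups lay far apart. Means were 2091 ± 499 and 169.9 ± 73.5 (SD, n = 3 each), a log2 fold change of -3.63 (SE 0.28, 95% interval -4.27 to -3.00, adjusted p = 1.84e-06 from edgeR), or 12.4-fold lower. ETV5 (ENSG00000244405.8, chromosome 3, 186046314 to 186110318, minus strand) had 901, 649 and 725 normalized counts in Control sh and 153, 96.6 and 88.2 in VprBP sh. Here too replicate 1 was the highest of each group, and the log2 fold change was -2.77 (SE 0.22, 95% interval -3.25 to -2.28, adjusted p = 2.06e-06 from edgeR), or 6.80-fold lower. ETV5 shares 164 of its 5773 exonic bases with DGKG on the same strand, whose counts were 68, 90 and 111 in Control sh and 0 throughout VprBP sh. ETV4 shares 68 of 3515 bases with DHX8 on the opposite strand.

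Both genes fell, and their ratio differed between the groups. There were 0.338, 0.358 and 0.405 ETV5 counts per ETV4 count in Control sh and 0.601, 0.788 and 0.665 in VprBP sh, without overlap (difference 0.90 on the log2 scale, exact two-sided permutation p = 0.1). ETV1 was low throughout, at 0.288% to 1.45% of the summed PEA3 level per kilobase. That sum was 729 ± 164 normalized counts per kilobase in Control sh (SD, n = 3) against 68.6 ± 27.1 in VprBP sh, 10.6-fold lower. The sum of DUSP6, DUSP7 and DUSP9 was 1062 ± 105 and 79.6 ± 22.7, or 13.3-fold lower, the steepest fall among the summed families. These families were put together after their values were seen, and the sums were not tested.

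**Figure D3:**
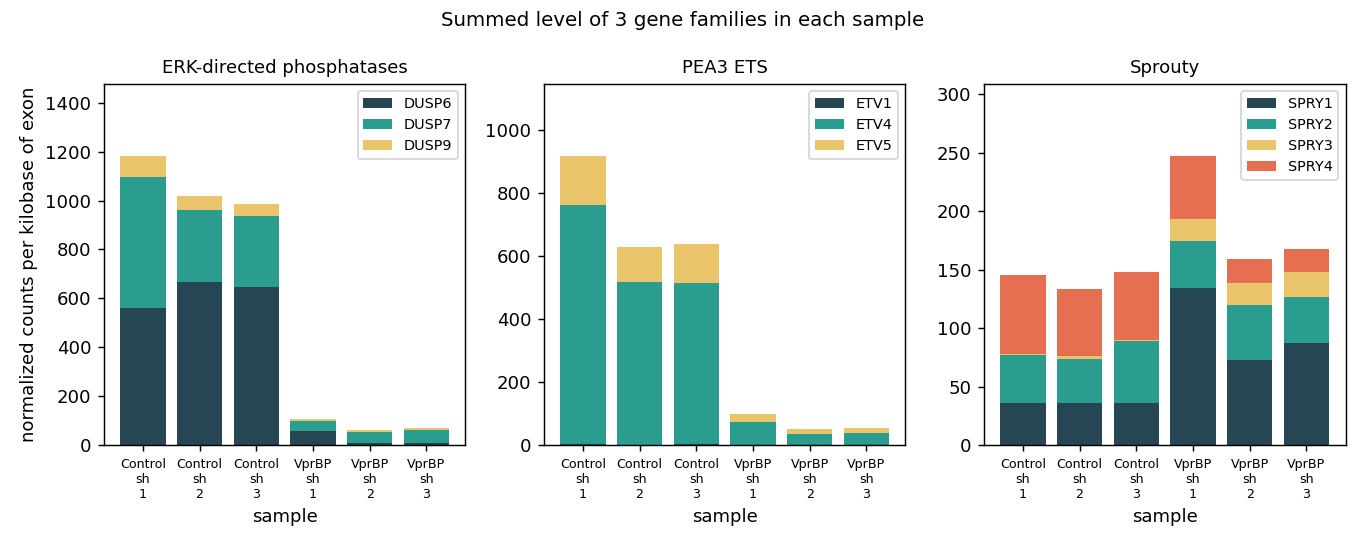
Summed level (normalized counts per kilobase of exon) of the ERK-directed phosphatases, the PEA3 ETS factors and the Sprouty genes in each of the 6 samples, with stacked colours for the genes. The first 2 sums are 13.3-fold and 10.6-fold lower in VprBP sh, whereas the Sprouty sum is higher in each VprBP sh sample and is mostly SPRY1 there in replicates 1 and 3.

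PHLDA1 encodes a pleckstrin homology-like protein that is induced by growth factor signalling and has been tied to survival and to receptor feedback. PHLDA1 (ENSG00000139289.14, chromosome 12, 76025447 to 76031776, minus strand) had the highest counts of the group in Control sh, with 9262, 10884 and 11014 normalized counts in Control sh and 879, 699 and 783 in VprBP sh. The samples of each group lay close together, and replicate 1 of VprBP sh was only 1.19 times the mean of the other two. Means were 10386.5 ± 976 and 787 ± 89.8 (SD, n = 3 each), a log2 fold change of -3.72 (SE 0.12, 95% interval -3.99 to -3.46, adjusted p = 6.3e-09 from edgeR), or 13.2-fold lower. Its SE was the smallest among the called genes of the group. PHLDA1 shares 553 of 5913 exonic bases with the antisense gene PHLDA1-AS1, which was not analysed here.

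Set per kilobase of exon, with all annotated exons of a gene merged, the order of the levels changed between the groups. In Control sh PHLDA1 was highest at 1757 ± 165 normalized counts per kilobase (SD, n = 3), followed by DUSP5 at 969 ± 49.0, DUSP6 at 625 ± 58.1 and ETV4 at 595 ± 142, the last 2 of which overlapped. DUSP4 (418 ± 9.03), SPRED2 (229 ± 37.9) and ETV5 (131 ± 22.3) came next, and SPRY4, SPRED1 and SPRY2, at 60.9, 53.1 and 44.04, overlapped with their neighbours at the bottom. In VprBP sh DUSP5 was highest at 827 ± 35.7 normalized counts per kilobase. DUSP4 (326 ± 171) and SPRED2 (262 ± 20.6) followed and overlapped, then PHLDA1 (133 ± 15.2). From ETV4 (48.3 ± 20.9) down to ETV5 (19.5 ± 6.10) each gene overlapped with the next, DUSP6 lying ninth at 25.6 ± 29.7.

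Replicate 1 of VprBP sh was higher than the mean of replicates 2 and 3 for 9 of the 10 feedback genes, the exception being SPRY2. The median log2 ratio over the group was 0.70, and over the 11580 genes with a VprBP sh mean of at least 100 normalized counts it was 0.01. DUSP6, with a mean of 98.9, is not among the latter. DUSP6, SPRY4 and DUSP4 were more than 2-fold higher in replicate 1, at 7.06, 2.65 and 2.30 times, as were 0.406% of those 11580 genes. In Control sh replicate 1 was higher for 6 of the 10 genes, with a median log2 ratio of 0.11 and none over 2-fold. DCAF1 was 1.54 times higher in replicate 1 of VprBP sh than in the other two. EGR1 and FOS, immediate early transcription factors induced by ERK, and DUSP1 were 4.48, 4.55 and 5.98 times higher there, and they were set beside the group after these ratios were seen. In Control sh replicate 1 was also higher for EGR1, FOS and DUSP1, at 1.39, 2.54 and 1.24 times the mean of replicates 2 and 3. The part of the DCAF1 level in these differences was not tested. Without replicate 1 of VprBP sh the median log2 fold change of the 10 genes was -1.23 and 5 genes were called as lower, SPRY4 in addition to the other 4.

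**Figure D4:**
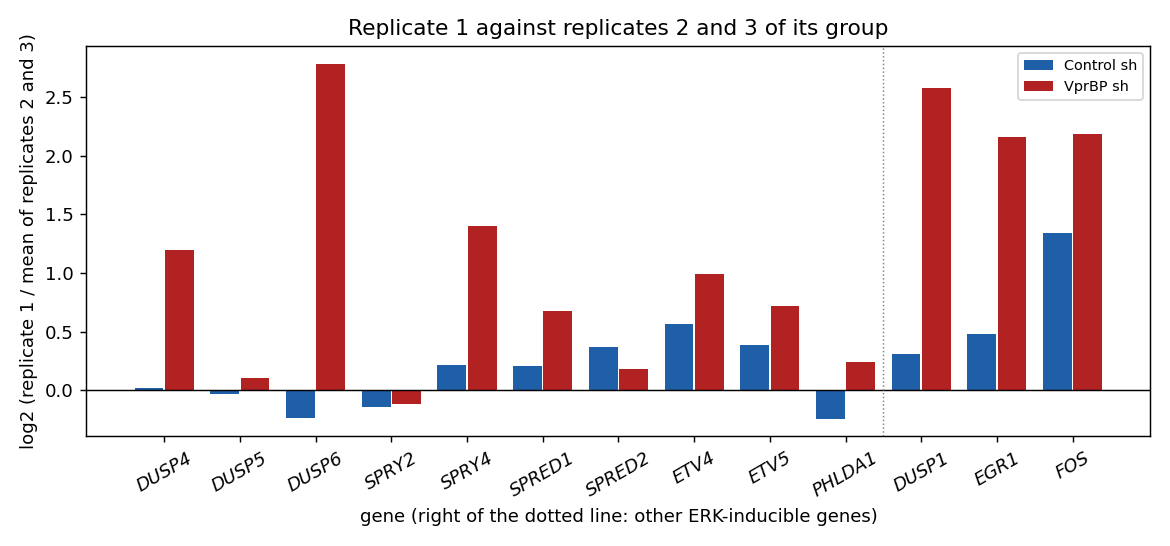
Log2 ratio of replicate 1 to the mean of replicates 2 and 3 of the same group, for the 10 feedback genes and, right of the dotted line, DUSP1, EGR1 and FOS, in Control sh (blue bars) and VprBP sh (red bars). The red bar is above 0 for 9 of the 10 genes and reaches 2.78 for DUSP6.

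The genes of the pathway outside the group did not move in 1 direction, and neither did all genes tested. Of 80 such genes in 8 lists, 78 were in the table and 76 were tested, of which 16 were called as higher and 27 as lower. The shares over all genes tested were 24.5% higher, 22.0% lower and 46.4% in either direction, so calls both ways are common in these data. Their median was -0.38 on the log2 scale. Among 12 other genes induced by ERK, 3 were called as higher and 7 as lower (median -2.19). FOSL1, an AP-1 subunit whose level tracks sustained ERK activity, fell from 3472 ± 199 normalized counts to 39.1, 10.4 and 12.3 (log2 fold change -7.46, SE 0.30, adjusted p = 2.32e-08 from edgeR). HMGA2, a chromatin protein, had 2929, 3451 and 3437 normalized counts in Control sh and 2.23, 0 and 0.767 in VprBP sh, the lowest of which were 0 and 1 counts. EGR1 and FOS went the other way. EGR1 rose from 1839, 1362 and 1279.9 to 23068, 5136 and 5174 normalized counts (log2 fold change 2.90, SE 0.55, adjusted p = 0.000891 from edgeR), and FOS from 1225, 450.0 and 514 to 14930.0, 3225 and 3345 (log2 fold change 3.30, SE 0.64, adjusted p = 0.00106 from edgeR). Both were higher in every VprBP sh sample, including replicates 2 and 3, in which DUSP6 was at its lowest.

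Of 15 genes of the cascade from RAS to ERK, 0 were called as higher and 5 as lower (median -0.59). The shares of all genes tested, 24.5% higher and 22.0% lower, stand beside this list and those that follow. RRAS, a RAS-related GTPase, fell from 2626 ± 148 to 181 ± 45.9 normalized counts (log2 fold change -3.85), and KSR1, a scaffold that brings RAF and MEK together, from 1291 ± 34.9 to 125 ± 11.3 (log2 fold change -3.36). Of 9 tested RAS activators and adaptors, 2 were called as higher, the docking proteins GAB2 (log2 fold change 3.42) and GAB1 (1.49), and SHC1, an adaptor of activated receptors, was called as lower (-1.84). Of 10 inhibitors of RAS and RAF, RASA1 and LZTR1 were called as higher (1.19 and 1.11) and NF1 and DAB2IP as lower (-2.08 and -1.08). NF1, the neurofibromin that Spred proteins recruit, fell from 10054 ± 714 to 2374 ± 167 normalized counts (adjusted p = 4.32e-08 from edgeR), and its pseudogene copies make the count uncertain.

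Receptor tyrosine kinases stand at the top of the pathway, and 11 of 14 were tested. Of the 11, 3 were called as higher and 5 as lower (median -0.36), beside 24.5% and 22.0% of all genes tested. AXL had 13366, 15135 and 15089.5 normalized counts in Control sh and 2.23, 0 and 2.30 in VprBP sh, at or under 3 counts in each. MET, the receptor of hepatocyte growth factor, fell from 14750.0 ± 1123 to 385 ± 67.9 normalized counts (log2 fold change -5.26, SE 0.14, adjusted p = 2.84e-09 from edgeR). FGFR1 went from 26.7, 34.8 and 31.3 to 2154, 2379.5 and 2346 normalized counts (log2 fold change 6.20, SE 0.13, adjusted p = 8.25e-10 from edgeR), and FGFR4 also rose (log2 fold change 3.60). Among 9 repressors and ETS factors regulated by ERK, 1 was called as higher, the capicua partner ATXN1 (log2 fold change 1.03), and 3 as lower, with ELK3 at -3.83 and ETS2 at -3.03 (median of the list -0.65). The medians of the ERK-induced and receptor lists were the same with HMGA2 and AXL set at a bound of 3 counts.

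**Figure D5:**
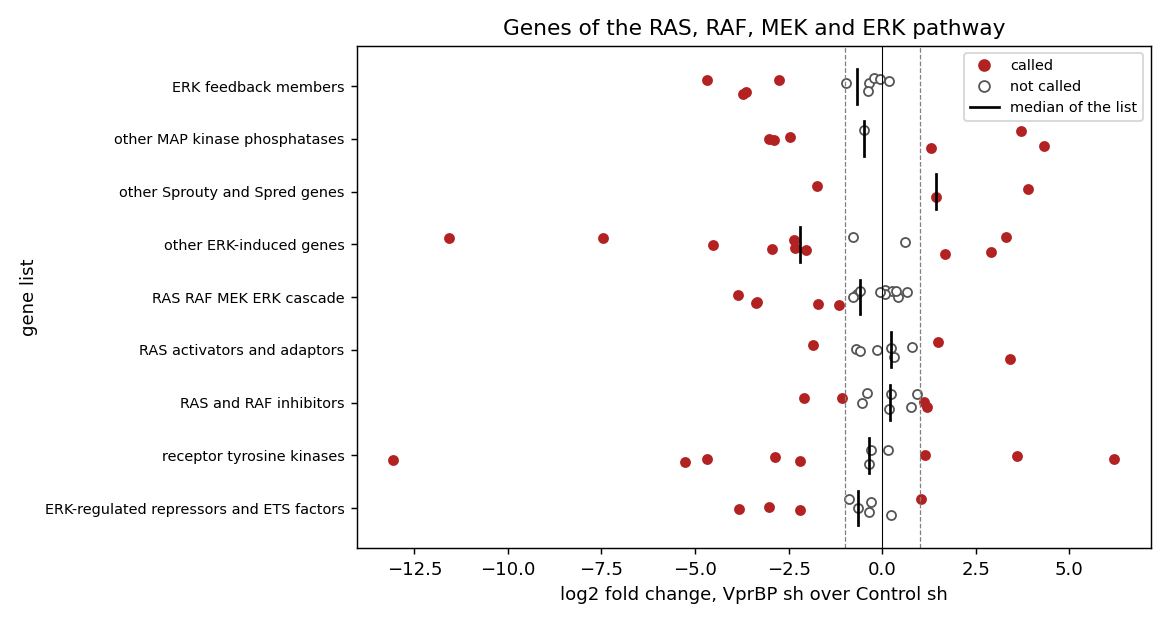
Log2 fold change of VprBP sh over Control sh for each tested gene of the 10 feedback genes and the 8 lists of other pathway genes, with filled points for called genes, a black line at the median of each list and dashed lines at a 2-fold change. The feedback genes have called points only on the left, while both families closest to them, the other phosphatases and the other Sprouty and Spred genes, have called points on both sides. Over all genes tested, 24.5% were called as higher and 22.0% as lower.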

How the data were processed

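RNA-seq was analysed for 3 Control sh and 3 VprBP sh samples, grouped by the titles in the labels. The authors aligned single-end reads to hg38 with STAR and GENCODE 29, quantified genes in Partek Flow and deposited estimated counts, neither normalized nor pooled. The labels name a SMARTER kit and the methods of the study a stranded KAPA kit, and whether counting used strand is not given in the sources used here. Of the values, 59.4% were whole, and all were rounded before testing. Genes were tested in edgeR 4.0.16 (R 4.3.3) by its quasi-likelihood test, with upper quartile factors (quantile 0.75) in place of the Gene Specific Algorithm of Partek Flow, its filter on low counts (minimum 10) and no replicate block. The design follows the methods of the study in its scaling and thresholds. Standard errors are the log2 fold change over the square root of F. Ratios within a sample were compared by exact permutation tests. Depth limits precision through counting error, which was addressed only by the intervals and the floor of 3 counts. The intervals also hold the spread between samples.

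The 10 feedback genes and the gene lists were chosen with earlier results of these data known. Named genes are the 10 genes, DCAF1, the 7 other MAP kinase phosphatases, the 3 other Sprouty and Spred genes and, from each other list, up to 2 called genes with the largest rise and up to 2 with the largest fall (the group with the higher level averaging 100 normalized counts or more). Genes outside this rule are marked, except ETV1 and markers, which belong to summed families or lists. Alternatives were TMM factors, library size alone, DESeq2 1.42.0, limma-voom (limma 3.58.1), other filters, a replicate block, calls at any fold change, edgeR's test against 2-fold, replicates 2 and 3 of each group summed, and each replicate left out. Leaving out replicate 1 of both groups was added after seeing the data. On simulated counts for this comparison (16756 genes, 200 changed by 2 on the log2 scale), edgeR recovered 100% with 1 false call. The simulation had a common dispersion, far fewer changed genes than these data and no replicate that stood apart. It therefore checks the code and gives no error rate for these data. Coordinates are those of the deposited table, with the last base as in GENCODE 44. Exon lengths are those of all annotated exons of a gene merged, from GENCODE 44, and promoter windows come from RefSeq (GRCh38.p14). Which transcripts of a gene were expressed was not determined, so orders and shares per kilobase between genes are approximate. The result of 1 gene is not reported here.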

Additional observations from a re-analysis of the deposited data

How the results depend on the processing

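The falls of DUSP6, ETV4, ETV5 and PHLDA1 were called under all 17 alternatives that give calls, and 4 to 6 feedback genes were called as lower and 0 as higher. SPRY4 lay on the threshold and was called under 8 of 16 alternatives. Calls at any fold change numbered 6025 lower and 6775 higher genes among all genes, and 25 higher pathway genes in place of 16. Requiring 10 counts or more in each sample gave 1996 lower and 2694 higher of 13103 genes against 3681 and 4097, since it drops genes that are off in a group. Over all genes the median log2 fold change, 0.08 with upper quartile factors, was -0.038 with DESeq2, -0.014 with TMM factors and 0.29 with library size alone, a shift that all genes share. The changes relative to that median were -0.45 for DUSP4, -0.31 for DUSP5, -0.15 for SPRY2, -1.05 for SPRY4, -0.47 for SPRED1 and 0.11 for SPRED2. SPRY2 changed sign, to 0.14 with library size alone and 0.089 without Control sh replicate 3 (leave-one-out range -0.17 to 0.089), in both cases below the median of all genes, which was then 0.29 and 0.10.

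With replicate 1 of both groups left out, the median of the 10 genes was -1.19. When each replicate was left out in turn, it ran from -1.23 to -0.49, the former without VprBP sh replicate 1. The other leave-one-out ranges were 4 to 5 feedback genes called as lower and 0 to 0 as higher, 3755 to 3985 and 4063 to 4239 among all genes, 26 to 28 and 15 to 17 among pathway genes, and -0.82 to -0.46 for DCAF1.

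The groups share the replicate numbers 1 to 3, but samples of 1 number did not deviate together, the correlations across genes being -0.06, 0.02 and -0.05, so the numbers were not taken as pairs. With the replicate number as a block, 5 feedback genes were called as lower, SPRY4 being added at a log2 fold change of -1.10 (adjusted p = 0.0113 from edgeR), whereas with replicates 2 and 3 of each group summed it had -0.80 (adjusted p = 0.0747 from edgeR) and was not called. The block gave 3655 lower and 4031 higher genes in all. The lowest count of the 10 genes in a sample was 32, for DUSP6.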
